A study of Mus musculus with 6 samples.

Results

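Il13ra2 encodes the IL-13 decoy receptor, and it is described here with 9 relatives among the cytokine receptors in cochlear explants cultured with or without neomycin, an aminoglycoside antibiotic that kills sensory hair cells (HCs). The relatives were Il13ra1, Il4ra, Il6ra, Il6st, Il11ra1, Osmr, Lifr, Il1r1 and Il1rl1. These 10 genes, found by symbol, were 10 of the 24421 symbols in the count table. Il13ra2 was chosen because it was strongly higher after neomycin in these same samples, so its values are a description and carry no test. The relatives were chosen by family, with earlier results of these data known.

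Cochleae of wild-type neonatal mice at postnatal day 2 were explanted, and RNA was sequenced from 3 control and 3 neomycin samples, every one pooled from 6 to 8 cochleae. The protocol was 12 h in culture, 1 mM neomycin for 6 h and a further 5 days of culture with 10 μM EdU, a label of DNA synthesis. The explants kept the sensory epithelium with its HCs and supporting cells (SCs), while the stria vascularis anlage, the modiolus and the tectorial membrane were removed. The labels give the same culture text, neomycin included, for all 6 samples, and the groups come from the treatment label. The comparison asked which genes differed between damaged and undamaged cochleae.

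IL-4 and IL-13 share a receptor built from IL-4Rα and IL-13Rα1, which signals through JAK kinases and STAT6. IL-13Rα2 binds IL-13 tightly but has a short cytoplasmic tail without the JAK docking sites of its relatives, and it is best known as a decoy that takes up the cytokine. IL-6, IL-11, LIF and oncostatin M use receptors that share gp130, the product of Il6st, and signal mainly through STAT3, whereas the IL-1 and IL-33 receptors belong to a separate family that signals through MyD88 and NF-κB.

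The 250 bases before the start of the decoy gene and of the signaling IL-13 receptor gene are shown here because the 2 genes bind the same cytokine and differed in their values. Both sequences run 5′ to 3′ on the coding strand and come from RefSeq (GRCm38.p6). That of Il13ra2 is chrX:147429193-147429442 on the minus strand and that of Il13ra1 is chrX:36111858-36112107 on the plus strand. Capitals mark a match to the AP-1 motif.
Il13ra2: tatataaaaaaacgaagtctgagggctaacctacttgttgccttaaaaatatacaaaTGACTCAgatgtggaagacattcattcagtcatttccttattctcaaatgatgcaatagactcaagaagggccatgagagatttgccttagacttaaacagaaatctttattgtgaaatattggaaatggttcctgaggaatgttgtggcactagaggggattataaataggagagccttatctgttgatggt
Il13ra1: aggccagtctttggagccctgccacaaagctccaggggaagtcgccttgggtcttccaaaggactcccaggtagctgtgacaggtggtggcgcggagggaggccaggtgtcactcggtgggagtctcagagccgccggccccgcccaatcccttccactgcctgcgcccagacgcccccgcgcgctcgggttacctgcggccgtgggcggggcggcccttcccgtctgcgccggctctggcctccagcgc
The Il13ra2 sequence was 36.0% G and C with 1 CpG, and that of Il13ra1 was 70.8% G and C with 21 CpGs. Over all 32851 RefSeq promoter windows of this length the medians were 52.4% and 6 CpGs. The motifs searched on both strands were STAT (TTCNNNGAA), STAT6 (TTCNNNNGAA) and AP-1 (TGANTCA). The decoy gene held 1 AP-1 match, TGACTCA, from 193 to 187 bases before the start, and 6.75% of all windows held a match to that motif. STAT matches occurred in 7.02% and STAT6 matches in 5.85% of all windows. No other start site listed for the 10 genes held a match to any of these motifs. A match is a run of letters and not a measured binding site.

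The decoy receptor gene Il13ra2 (chromosome X, 147383476 to 147429192 in mm10) was low in control cochleae and several times higher after neomycin. It had 93, 63 and 67 counts in control samples 1, 2 and 3, and 364, 279 and 305 counts in neomycin samples 1, 2 and 3. In CPM, which are counts relative to the scaled size of the library, these were 1.35, 1.21 and 1.19 in control and 6.85, 4.73 and 5.68 after neomycin. The lowest neomycin sample lay far above the highest control sample, so the groups did not overlap. The means were 1.25 ± 0.0857 (SD, n = 3) and 5.75 ± 1.06 (SD, n = 3), a ratio of 4.61, and the fitted log2 fold change (log2FC) was 2.20 with a standard error of 0.21. Among the control samples the coefficient of variation was 6.86%, below the 11.6% that counting alone gives at this depth. Among the neomycin samples it was 18.5% against 5.63% from counting, so those 3 samples differed from each other by more than counting error. Of 14036 genes with a mean of at least 1 CPM, Il13ra2 was the 5th by log2FC, between Myoc (2.39) and Mir99a (1.82).

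**Figure D1:**
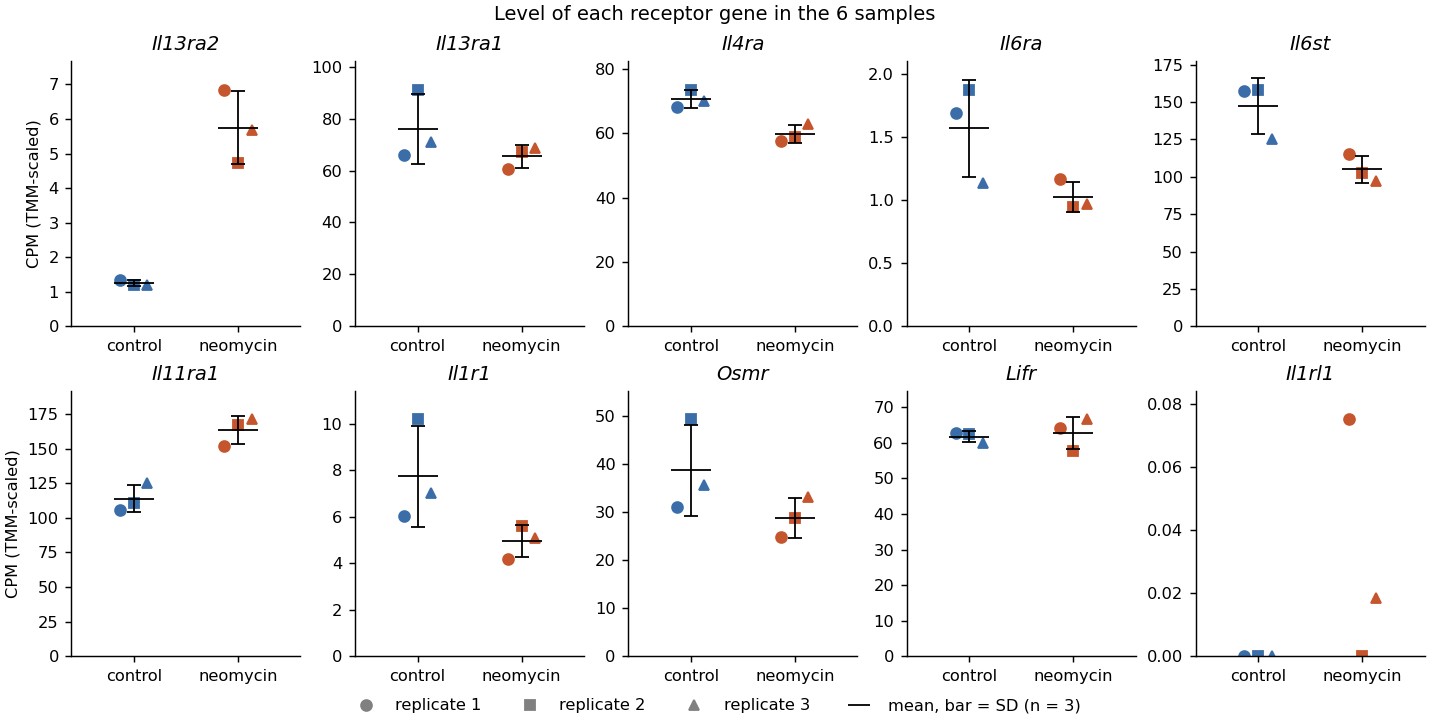
Level of each of the 10 receptor genes in CPM (linear axes from 0) by group, with 1 marker shape per replicate number and bars for the mean and SD of 3 samples, except for Il1rl1, which is shown without a mean. Il13ra2 lies between 1.19 and 1.35 in control and between 4.73 and 6.85 after neomycin, while Il11ra1 is the other gene with all neomycin samples clearly above all control samples.

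Of the 9 relatives, 8 had enough counts to be tested, and 4 of these passed an adjusted p of 0.05 (edgeR quasi-likelihood test), when 29.0% of the 15988 genes tested did. Il11ra1 was higher after neomycin, where 12.9% of all genes tested were called, and Il4ra, Il6st and Il1r1 were lower, where 16.1% were called. The same 4 genes were those whose groups did not overlap, a pattern seen in 43.5% of genes tested. Il1r1 alone also passed a fold change of 1.5, as 8.84% of genes tested did (2.24% higher and 6.6% lower). The median log2FC of the 8 relatives was -0.33, against -0.00 over all genes tested. Control 2 was the highest control sample for Il13ra1, Il4ra, Il6ra, Il6st, Il1r1 and Osmr, and without it 2 relatives were called, Il6st and Il11ra1. Without neomycin 1 or neomycin 2 the count was also 2, and without control 1 it was 6.

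Of the chains that form the signaling IL-4 and IL-13 receptor, Il4ra was called lower after neomycin, by a small margin, and Il13ra1 was not called. Il4ra (chromosome 7, 125552120 to 125579474), the chain shared by both cytokines, was at 68.2, 73.5 and 69.8 CPM in control and at 57.7, 58.8 and 62.9 CPM after neomycin. All neomycin samples were below all control samples. The means were 70.5 ± 2.74 and 59.8 ± 2.77 (SD, n = 3), and the log2FC was -0.24 (SE 0.07, adjusted p = 0.0239). The call was lost without control 2 (adjusted p = 0.106), neomycin 1 (0.0698) or neomycin 2 (0.106), and with a correction for exon length (log2FC -0.15, adjusted p = 0.111). An antisense gene, Gm44876, covers 9.51% of the Il4ra exon bases, and the strand setting of the counting is not given in the sources used here.

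Il13ra1 (chromosome X, 36112110 to 36171259), which binds IL-13 in the signaling complex, was at 65.8, 91.2 and 71.0 CPM in control and at 60.5, 67.1 and 68.8 CPM after neomycin. The groups overlapped, with control 2 above all other samples. The log2FC was -0.21 (SE 0.11, adjusted p = 0.154), and it passed only when control 1 was left out (log2FC -0.30, adjusted p = 0.0487).

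On the scale of CPM per kilobase of exon, Il13ra1 exceeded the decoy 30.0-, 46.4- and 36.6-fold in the 3 control samples. After neomycin the ratio was 5.43, 8.72 and 7.44. The ratio of Il4ra to the decoy on the same scale was 21.5 ± 2.05 (SD, n = 3) in control and 4.05 ± 0.776 (SD, n = 3) after neomycin. In every sample the decoy stayed the lowest of the 3 receptor genes, and these ratios, which hold its own level, are a description with no test.

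Both IL-13 receptor genes are X-linked, and all 6 samples held both Xist and Y-linked transcripts. Xist, which is transcribed from the inactive X, ranged from 3550 to 17085 counts over control samples and from 9248 to 12515 over neomycin samples. The Y-linked Ddx3y ranged from 2066 to 3440 and from 815 to 2135 counts, so both genes overlapped between the groups. Their part in the Il13ra2 values was not tested.

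The cytokines of this axis were barely counted. Il4 had 1, 0 and 3 counts in control and 0 in all 3 neomycin samples, and Il13 had 0, 0 and 1 counts in control and 0, 2 and 0 after neomycin. These are at or under 3 counts in every library, which corresponds to 0.0435 to 0.0575 CPM, so neither cytokine was detectable above that floor at this depth. Floors cover counting error only. Of 13 genes of the IL-4 and IL-13 axis other than the receptors above, 11 were tested, none was called higher and 4 were called lower, with a median log2FC of -0.15. Of all genes tested, 12.9% were called higher and 16.1% lower, and these shares stand beside every list below. The insulin receptor substrates Irs2 and Irs1, adaptors that also dock to IL-4Rα, had log2FC values of -1.21 (adjusted p = 0.00151) and -0.27 (adjusted p = 0.0348). The kinases Jak3 and Tyk2 had log2FC values of -0.34 (adjusted p = 0.0439) and -0.31 (adjusted p = 0.0152). Irs2 was at 13.6, 11.3 and 8.29 CPM in control and at 5.52, 5.42 and 3.41 CPM after neomycin, with no overlap. Stat6, the main transcription factor of the axis, was not called (log2FC -0.15, adjusted p = 0.137), nor were Jak1 (-0.11, adjusted p = 0.249) or Jak2 (-0.06, adjusted p = 0.584). Irs2 passed whichever library was left out, and was the only 1 of the 4 to pass without control 1, control 2, neomycin 2 or neomycin 3 (adjusted p of the others from 0.053 to 0.153) and with the exon length correction (from 0.0705 to 0.345). Tyk2 also passed without neomycin 1, where Irs1 and Jak3 did not (0.0882 and 0.0984), and Jak3 did not pass without control 3 (0.0752).

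Of 11 genes known to respond to type 2 cytokines in macrophages, epithelium or fibroblasts, 6 were tested, and Postn and Alox15 were called lower. Postn, a matrix protein of fibroblasts that IL-13 can induce, was at 496 ± 39.7 CPM in control and 354 ± 22.6 CPM after neomycin (SD, n = 3, log2FC -0.49, adjusted p = 0.0019). Alox15, a lipoxygenase, was at 2.21 ± 0.715 and 1.23 ± 0.0904 CPM (SD, n = 3, log2FC -0.84, adjusted p = 0.0474). The Alox15 call was lost without control 1, control 3 or any 1 of the neomycin samples (adjusted p from 0.093 to 0.164). Of the macrophage genes on the list, Arg1, which encodes arginase, had 505 to 774 counts over the 6 samples and was not called (log2FC -0.05, adjusted p = 0.862), while Retnla had 0 counts in all 6 samples and Chil3 had counts in control 3 (6) and neomycin 3 (22) only. The median of the 6 genes was -0.26.

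The gp130 family split by chain. Il6st (chromosome 13, 112464070 to 112510086), the shared signaling chain, was at 158, 158 and 126 CPM in control and at 115, 103 and 97.5 CPM after neomycin. Its groups did not overlap. The means were 147 ± 18.7 and 105 ± 9.03 CPM (SD, n = 3), 28.6% lower, with a log2FC of -0.49 (SE 0.10, adjusted p = 0.00365). It passed under all 14 alternatives, and its log2FC was -0.28 with the exon length correction.

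Il11ra1 (chromosome 4, 41699989 to 41769474), the chain that gives gp130 its specificity for IL-11, was at 106, 111 and 125 CPM in control and at 152, 167 and 171 CPM after neomycin. All neomycin samples were above all control samples. The means were 114 ± 9.90 and 164 ± 10.3 CPM (SD, n = 3), a ratio of 1.43, with a log2FC of 0.52 (SE 0.08, adjusted p = 0.000872). It passed under all 14 alternatives, with log2FC values from 0.45 to 0.60. The near-identical gene Il11ra2 had 0 counts in all 6 samples, and how reads that fit both genes were handled is not given in the sources used here. Per kilobase of exon, Il11ra1 exceeded Il6st 1.96 ± 0.445-fold in control and 3.90 ± 0.560-fold after neomycin (SD, n = 3), with no overlap between the groups. With the length of the longest coding transcript, which is much shorter than all exons for Il11ra1, these ratios were 3.41 ± 0.775 and 6.78 ± 0.974 (SD, n = 3).

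Il6ra (chromosome 3, 89864059 to 89913196), the IL-6 binding chain, was at 1.70, 1.88 and 1.14 CPM in control and at 1.17, 0.949 and 0.968 CPM after neomycin. Control 3 lay within the neomycin range, so the groups overlapped. The log2FC was -0.61 (SE 0.30, adjusted p = 0.146), and it passed under none of the 14 alternatives. At 52 to 117 counts per library it had the largest standard error of the 9 receptor genes fitted. The ratio of Il6st to Il6ra per kilobase of exon was 74.6 ± 10.3 in control and 79.8 ± 3.96 after neomycin (SD, n = 3). These ranges overlapped.

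Osmr and Lifr, which pair with gp130 to bind oncostatin M and LIF, lie next to each other on chromosome 15 (6813577 to 6874969 and 7090614 to 7197489), 215644 bases apart. Osmr was at 31.0, 49.4 and 35.8 CPM in control and at 24.8, 28.9 and 33.1 CPM after neomycin. Neomycin 3 lay above control 1, so the groups overlapped. The log2FC was -0.42 (SE 0.15, adjusted p = 0.0534), on the other side of the threshold from DESeq2 (adjusted p = 0.0216). It passed under 6 of 14 alternatives, among them without control 1 (adjusted p = 0.0110) or neomycin 3 (0.0383), reached 0.287 without control 2, and had a log2FC of -0.20 with the exon length correction (adjusted p = 0.377). Lifr was at 62.7, 62.6 and 60.0 CPM in control and at 64.1, 57.8 and 66.7 CPM after neomycin. Its control samples lay inside the range of the neomycin samples, and the log2FC was 0.03 (SE 0.07, adjusted p = 0.821). With the exon length correction it was 0.22 (adjusted p = 0.0395), while scaling by library totals alone gave -0.04, so its direction depended on the scaling.

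**Figure D2:**
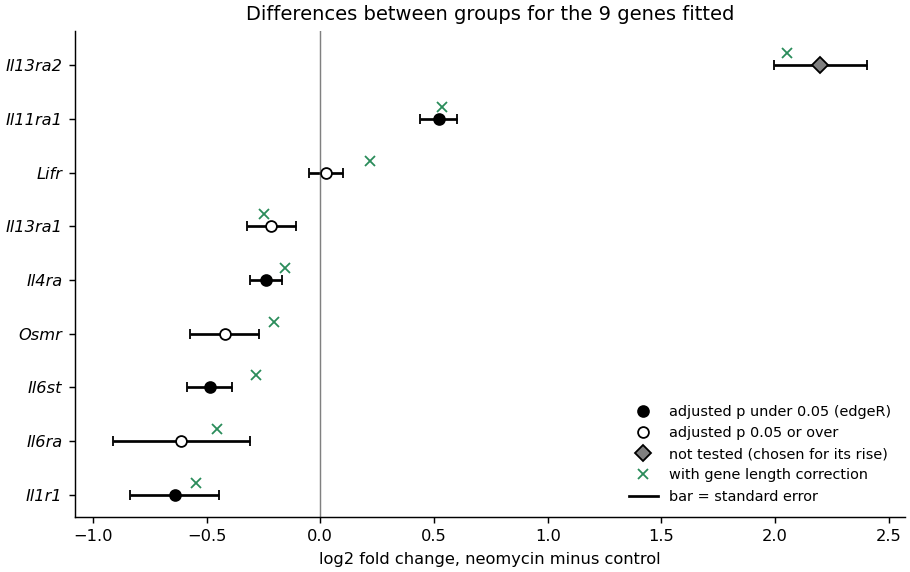
Fitted log2FC (neomycin minus control, 3 samples a group) of the 9 receptor genes with enough counts, with standard error bars, filled circles for an adjusted p under 0.05, a diamond for the untested Il13ra2 and crosses for the fit with exon length correction. Il13ra2 stands at 2.20 and Il11ra1 at 0.52, and the relatives called lower lie between -0.24 and -0.64.

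Among the ligands of the gp130 receptors, Lif had 594, 773 and 516 counts in control and 276, 268 and 413 after neomycin, with no overlap. Its level was 10.9 ± 3.43 CPM in control and 5.81 ± 1.66 CPM after neomycin (SD, n = 3), a log2FC of -0.90 (adjusted p = 0.0114), which was lost without control 2 (adjusted p = 0.0710) or neomycin 2 (0.0612). Il6 had 5 to 32 counts, Il11 had 17 to 67 and Osm had 3 to 30 over the 6 samples, with overlapping groups for each. Of the 21 other ligands and receptors of this family, 17 were tested, none was called higher and 2 were called lower, Lif among them. The count was 0 without control 2 or neomycin 2 and 1 without neomycin 3. The median of the list was -0.16. Cntfr, the CNTF binding chain, was at 79.6 ± 4.13 and 84.9 ± 3.17 CPM (SD, n = 3, adjusted p = 0.340).

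Of 13 genes for STAT3, its feedback inhibitors and its known targets, 12 were tested, and 3 targets were called lower. Lcn2, an iron-sequestering secreted protein of the acute phase, had 55293, 53115 and 39461 counts in control and 7766, 13016 and 29317 after neomycin (log2FC -1.47, adjusted p = 0.00868). The groups did not overlap, but the neomycin samples spread widely, and the call was lost without neomycin 2 (adjusted p = 0.0507). The protease inhibitor Serpina3n had a log2FC of -1.25 (adjusted p = 0.000742) and the kinase Pim1 of -0.58 (adjusted p = 0.0137). Stat3 itself (log2FC -0.18, adjusted p = 0.0799) and its inhibitor Socs3 (-0.31, adjusted p = 0.241) were not called. Socs2, also on this list, was not called (log2FC 0.14, adjusted p = 0.126), although all its neomycin samples were above all control samples. With the exon length correction it passed as higher (log2FC 0.31, adjusted p = 0.0058). Serpina3n passed whichever library was left out, Pim1 did not pass without control 2 (adjusted p = 0.0781) or neomycin 2 (0.0570), and the count ranged from 1 without neomycin 2 to 4 without control 1. The median of the 12 genes was -0.18.

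In the IL-1 family, Il1r1 (chromosome 1, 40225080 to 40317257), the signaling receptor for IL-1, was at 6.04, 10.2 and 7.01 CPM in control and at 4.20, 5.59 and 5.08 CPM after neomycin. Its groups did not overlap, although control 1 and neomycin 2 lay close to each other. The means were 7.75 ± 2.17 and 4.96 ± 0.705 CPM (SD, n = 3), 36.0% lower, with a log2FC of -0.64 (SE 0.20, adjusted p = 0.0284). The call was lost without control 2 (adjusted p = 0.164), neomycin 1 (0.0759), neomycin 2 (0.0501) or neomycin 3 (0.0596), and with the exon length correction (log2FC -0.54, adjusted p = 0.0570).

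Il1rl1 (chromosome 1, 40429570 to 40465415), which encodes the IL-33 receptor ST2, had 0 counts in all 3 control samples and 4, 0 and 1 counts after neomycin. It was too low to be tested, and no fold change is given. Its ligand Il33, by contrast, was well counted, at 8283, 6566 and 6175 counts in control and 4292, 5298 and 5182 counts after neomycin. All neomycin samples were below all control samples, at 119 ± 8.10 and 89.0 ± 7.86 CPM (SD, n = 3), and the log2FC was -0.41 (adjusted p = 0.00357).

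Il1r1 and Il1rl1 lie in a run of 6 receptor genes of this family between 40074079 and 40551705 on chromosome 1. Among the others in that run, Il18rap had 32, 22 and 22 counts in control and 1, 6 and 10 after neomycin (log2FC -2.03, adjusted p = 0.0282), and Il1rl2 had 117, 81 and 72 counts against 49, 41 and 29 (-1.07, adjusted p = 0.0266). Both had no overlap between groups and few counts. The Il18rap call was lost without control 1, control 2, neomycin 1 or neomycin 2 (adjusted p from 0.0806 to 0.0918), and the Il1rl2 call without control 1, control 2, neomycin 2 or neomycin 3 (from 0.0827 to 0.0961). Il1rap, the accessory chain that IL-1R1 and ST2 both need, was at 16.0 ± 1.37 and 10.1 ± 1.09 CPM (SD, n = 3), a log2FC of -0.67 (adjusted p = 0.0015).

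Of the 17 other ligands and receptors of the IL-1 family, 12 were tested, none was called higher and these 4 were called lower, and the median was -0.24. Il33 and Il1rap passed whichever library was left out, and the count was 2 without control 1, control 2 or neomycin 2. Il1b had 9, 9 and 2 counts in control and 0, 0 and 3 after neomycin, and Il1a had 15 to 40 counts over all samples. The ligand Il18 was at 3.14, 3.74 and 2.94 CPM in control and at 4.03, 5.25 and 4.64 CPM after neomycin, with all neomycin samples higher. It was not called by edgeR but had an unadjusted p under 0.05, and DESeq2 called 5 genes of this list. Il1rn, the receptor antagonist, was at 1.15 ± 0.383 and 1.77 ± 0.121 CPM (SD, n = 3, adjusted p = 0.129). It was not called, although all its neomycin samples were above all control samples. In this list 2 genes had all neomycin samples higher and 5 had all of them lower.

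Of 16 genes that carry the signal from the IL-1 receptor, all were tested, none was called higher and 3 were called lower, with a median of -0.13. Tnfaip3, an inhibitor of NF-κB signaling, had a log2FC of -0.44 (adjusted p = 0.00377), Nfkb1 of -0.30 (adjusted p = 0.0231) and the ligase Traf6 of -0.27 (adjusted p = 0.0316). Tnfaip3 passed whichever library was left out, while Nfkb1 did not pass without control 1, control 2, neomycin 2 or neomycin 3 (adjusted p from 0.0755 to 0.107). Traf6 passed without control 3 and in no other of these fits (from 0.0604 to 0.127), and with the exon length correction Nfkb1 (0.381) and Traf6 (0.237) did not pass. The count was 1 without control 2 or neomycin 2 and 2 without neomycin 1. None of the 3 passed a fold change of 1.5. Among 17 other class I cytokine receptors, 15 were tested and 0 were called by edgeR. At an unadjusted p under 0.05 there was 1, Crlf2 (log2FC 0.40), which DESeq2 called and limma-voom did not. The median of that list was 0.27. Of all genes tested, 29.0% were called, 12.9% higher and 16.1% lower. The share called was 36.4% for the IL-4 and IL-13 axis and 33.3% each for the type 2 and IL-1 family lists. It was under 29.0% for the STAT3 (25.0%), IL-1 signaling (18.8%), gp130 (11.8%) and other class I receptor lists.

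**Figure D3:**
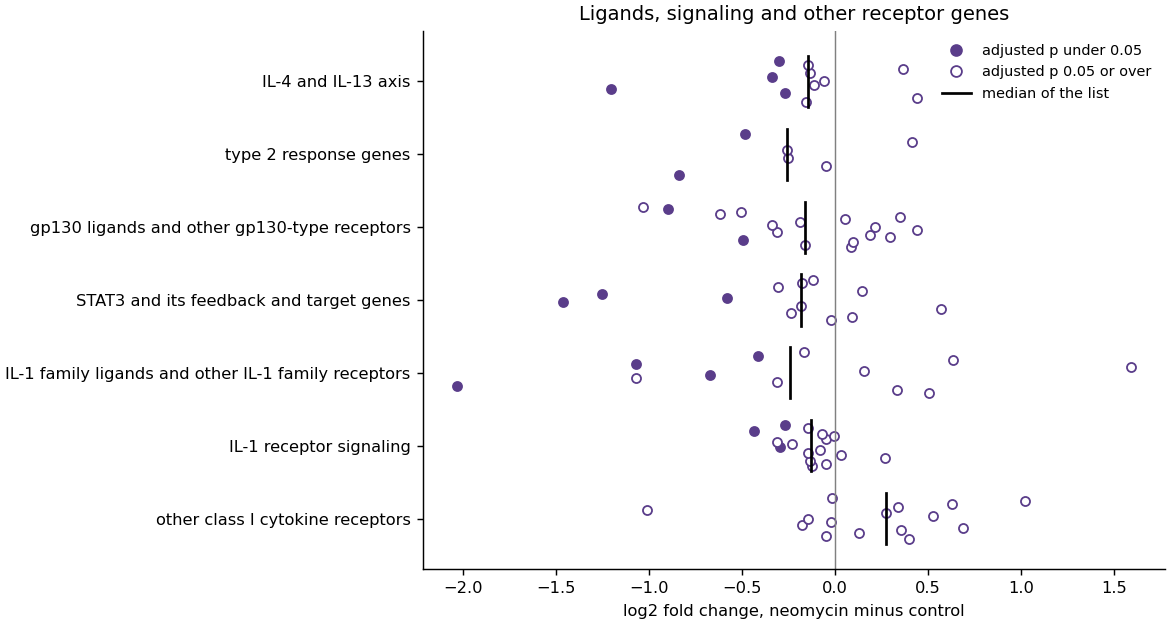
Fitted log2FC (neomycin minus control) of each tested gene in 7 lists of ligands, signaling genes and other receptors, with filled circles for an adjusted p under 0.05 and a bar at the median of each list. All filled circles lie below 0, and the medians run from -0.26 for type 2 response genes to 0.27 for other class I cytokine receptors. Of all genes tested, 12.9% were called higher and 16.1% lower.

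Levels of the 10 genes can be ordered only per length, here as CPM per kilobase of annotated exon. In control samples the order of means was Il11ra1 (25.5), Il13ra1 (20.5), Il6st (13.3), Il4ra (11.7), Lifr (5.73), Osmr (3.20), Il1r1 (1.22), Il13ra2 (0.548) and Il6ra (0.182), with Il1rl1 at 0. Sample ranges overlapped for the neighbours Il11ra1 and Il13ra1 and for Il6st and Il4ra, and not for the other neighbours.

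After neomycin the order was Il11ra1 (36.6), Il13ra1 (17.6), Il4ra (9.96), Il6st (9.47), Lifr (5.83), Il13ra2 (2.52), Osmr (2.39), Il1r1 (0.779), Il6ra (0.119) and Il1rl1 (0.00454). Here Il4ra and Il6st overlapped, as did Il13ra2 and Osmr. Il13ra2 thus stood 8th in control and 6th after neomycin, past Il1r1 and Osmr, with an overlap with the latter. Several places depended on the length used. With the longest coding transcript in place of all exons, Il13ra2 was 8th in control and 7th after neomycin, below Osmr (5.27) with no overlap. Osmr (7.06) then stood above Lifr (6.40) in control with overlapping ranges, and Il6st (12.1) above Il4ra (11.4) after neomycin, also overlapping. In control Il11ra1 (56.7) was then clear of Il13ra1 (20.5), Il6st was clear of Il4ra, and Il13ra1 overlapped Il6st.

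**Figure D4:**
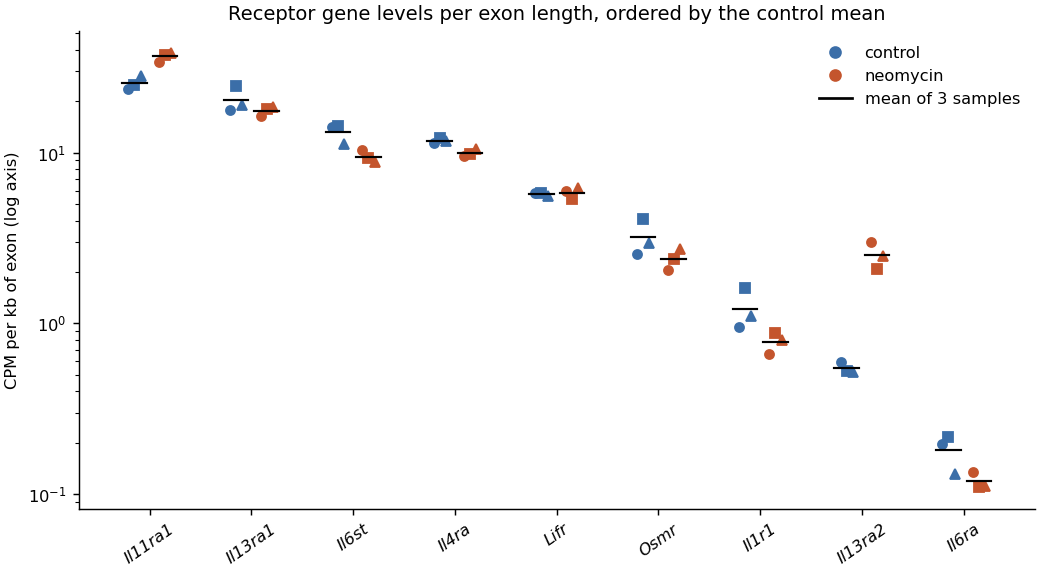
Level of 9 receptor genes in CPM per kilobase of exon on a log axis, ordered by the control mean, with 1 point per sample and a line at the mean of 3 samples (Il1rl1, near 0, is left out). Il13ra2 moves from a control mean of 0.548 to 2.52 after neomycin, while the order of the genes at the upper end stays led by Il11ra1 and Il13ra1.

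The genes whose profile over the 6 samples was most like that of Il13ra2 were found by the root mean square difference of centred log2 CPM over 14035 genes. This measure mostly follows the difference between the groups, which was also what Il13ra2 was chosen for. The nearest was Umodl1, at 9.36 ± 1.01 CPM in control and 57.7 ± 8.11 CPM after neomycin (SD, n = 3), with a difference of 0.294. It was followed by Qpct, which encodes glutaminyl cyclase (19.3 ± 3.09 and 55.8 ± 5.46 CPM, difference 0.357), and by Mir99a (0.587 ± 0.101 and 2.08 ± 0.235 CPM, difference 0.362). Gm5089 (difference 0.370) and 2700069I18Rik (difference 0.379) came next, at 1.79 and 1.46 CPM in control. Of the 8 relatives tested, Il11ra1 had the smallest difference, 0.850, and ranked 499, and Lifr ranked 6118.

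The explants hold many cell types, and markers of several of them differed between the groups. Of all genes tested, 29.0% were called, 12.9% higher and 16.1% lower. The Schwann and glial list, with 28.6% called, was near that share. The summed level of 12 HC markers was 725 to 835 CPM in control and 241 to 297 CPM after neomycin, with 11 of 12 called lower. That of 12 SC markers was 5513 to 6717 and 7114 to 10233 CPM (2 called higher and 3 lower), and that of 12 macrophage and myeloid markers was 103 to 135 and 148 to 183 CPM (6 called higher). Among 11 mesenchyme markers 3 were called higher and 3 lower (6310 to 6961 and 7366 to 7408 CPM). The endothelial list had 6 of 8 called lower (281 to 315 and 267 to 317 CPM), the Schwann and glial list 2 of 7 lower (192 to 254 and 175 to 204 CPM), and the neuronal list 1 of 7 higher and 3 lower (140 to 213 and 119 to 149 CPM).

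Mast cells and lymphoid cells are known sources of IL-13, and few of their markers were well counted. Of 8 mast cell markers 2 were tested, Hdc and Kit, and Kit was called lower (54.6 to 70.7 and 48.6 to 52.0 CPM for the sum, which is mostly Kit), while Mcpt4 and Fcer1a had 0 counts in all samples and the remaining markers had 9 or fewer. Of 10 lymphoid markers 3 were tested and 0 were called by edgeR, by DESeq2 or at an unadjusted p under 0.05, with 0 counts of Cd3d and Ncr1 in all samples (241 to 267 and 257 to 307 CPM for the sum, which is mostly Gata3). Lymphoid markers other than Gata3 had 47 counts or fewer. The mast cell and lymphoid sums thus each followed a single gene, so neither measures the amount of its cell type. Neomycin 1 had the highest Il13ra2 level, the highest SC sum and the lowest myeloid sum of the neomycin samples, which rests on 1 sample. The SC list had a median log2FC of 0.11 with 2 genes called higher and 3 lower, so its sum did not follow most of its markers. The part of these shifts in the receptor values was not tested, and in these bulk samples fewer cells of a type and less RNA per cell cannot be told apart.

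**Figure D5:**
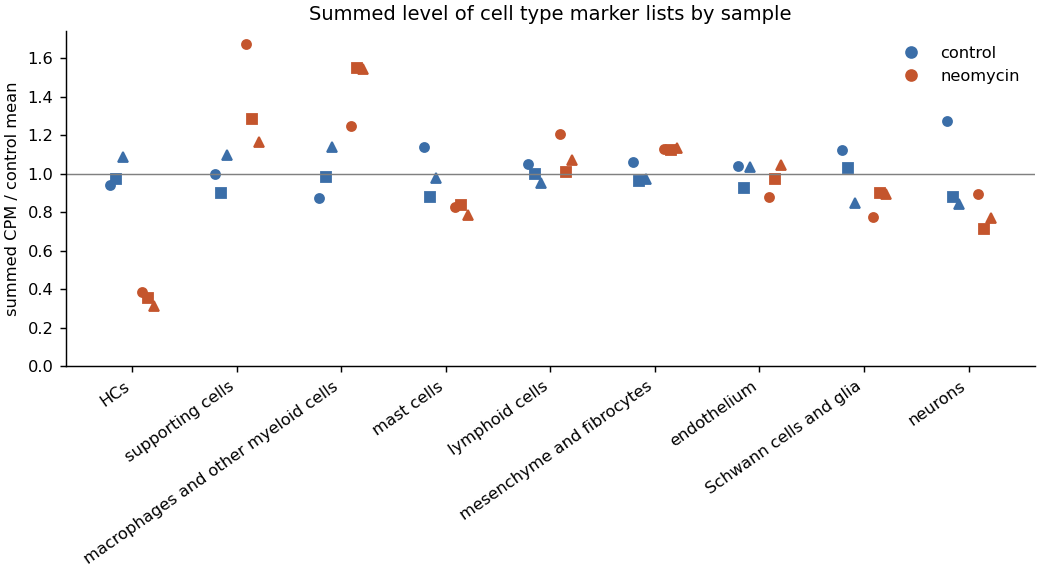
Summed CPM of each cell type marker list in each of the 6 samples, divided by the control mean of that list (linear axis from 0), with 1 point per sample. The HC sums of 241 to 297 CPM after neomycin lie far below the control sums of 725 to 835 CPM, and the SC, myeloid and mesenchyme sums lie above theirs. The endothelial sums overlap between the groups, although 6 of the 8 markers in that list were called lower.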

How the data were processed

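RNA-seq was performed on 3 control and 3 neomycin samples, every one pooled from 6 to 8 cochleae, so p-values measure the spread between these samples. The authors deposited 1 table of raw read counts per gene symbol. Per the labels and the study's methods, reads were called with CASAVA 1.8, trimmed with Trimmomatic 0.23, mapped to mm10 with HISAT2 and counted with HTSeq. Strand setting and handling of reads with several matches are not given in the sources used here. Totals were 50471116 to 66068108 counts. No 2 samples of a group agreed within sampling noise (mean chi-square per gene 13.8 to 46.6).

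Counts were fitted with edgeR 4.0.16 (R 4.3.3) after filterByExpr and TMM scaling, with the quasi-likelihood test, neomycin minus control, and Benjamini-Hochberg adjustment over 15988 genes. The study itself used DESeq2 with an adjusted p of 0.05 and a fold change of 1.5. Here 4629 genes were called (2058 higher and 2571 lower), 1413 of them past that fold change. On simulated counts for 15852 genes with 200 changed, 180 were recovered with 10 false calls. Recovery at the log2FC sizes of the relatives called here was not tested separately. CPM used TMM-scaled library sizes. Exon lengths, positions and overlaps came from GENCODE M21, which matched 23376 symbols directly and 678 through another symbol, and left 367 unmatched. Alternatives were other scalings and filters, a replicate block, an exon length correction (lengths for 99.2% of genes tested), DESeq2 1.42.0, limma-voom 3.58.1, the added fold change, leaving out each sample and, chosen after seeing the data, levels and ratios per length of the longest coding transcript. Promoter sequences came from RefSeq tables on GRCm38.p6.

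The 10 receptor genes, the 7 pathway lists and the 9 marker lists were chosen with earlier results of these data known. All 10 receptors were named, as were list members with an adjusted p under 0.05, up to the 4 largest by log2 fold change, the ligands of the receptors by count and the 5 genes most like Il13ra2. The other gp130 list gene called lower is not reported here. Further genes (Stat6, Stat3, Jak1, Jak2, Socs3, Socs2, Cntfr, Il1rn, Il18, Il11ra2, Arg1, Retnla, Chil3, Crlf2, Myoc and marker, sex-linked or neighbouring genes) were added after their values were seen.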

Additional observations from a re-analysis of the deposited data

How the results depend on the processing

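The log2 fold change of Il13ra2 stayed between 2.05 and 2.32 under every alternative run, including each sample left out. Over the other named genes, 289 of 363 values kept direction and side of the threshold, 64 no longer passed, 8 newly passed and 2 changed direction, both for Lifr (-0.0438 with library totals alone and -0.0187 without neomycin replicate 3, while leaving out other samples gave up to 0.0831 and the exon length correction 0.22). Leaving out single samples moved the called relatives from 4 to between 2 and 6, the IL-4 and IL-13 axis from 4 to 1 to 4, type 2 genes from 2 to 1 to 2, gp130 genes from 2 to 0 to 2, STAT3 genes from 3 to 1 to 4, IL-1 family genes from 4 to 2 to 4, IL-1 signaling genes from 3 to 1 to 3, and other class I receptors from 0 to 0 to 1. Adding a fold change of 1.5 left 1 relative, 1 axis gene, 1 type 2 gene, 1 gp130 gene and 0 IL-1 signaling genes. The exon length correction gave 1 axis gene and 5 STAT3 genes, of which Socs2 was higher. Limma-voom gave 1 type 2 gene, and DESeq2 1 other class I receptor. IL-1 signaling genes numbered 6 with library totals alone and 5 with a filter of at least 1 count in any sample. The cause of these moves was not tested, apart from the stricter rule of the added fold change. Library totals alone also changed the split of all calls to 29.7% higher, against 44.5%, with a median log2 fold change of -0.07. Same-numbered samples correlated at 0.17, 0.03 and 0.09 in their deviations, and other pairs at -0.13 to 0.03. Each neomycin sample correlated best with its same-numbered control, while control 2 was slightly closer to neomycin 3 (0.032) than to neomycin 2 (0.026). The labels state no pairing, so the main fit was not paired, and whether the numbers mark pairs was not settled. With the replicate block 6014 genes were called in place of 4629, IL-1 signaling genes numbered 5, type 2 genes 1, and Osmr passed (adjusted p = 0.0141). With 3 samples a group, all-gene calls ran from 2518 without neomycin 2 to 5341 without control 3. Depth limits Il4, Il13 and Il1rl1, at 4 or fewer counts in every library.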
